A study of Homo sapiens with 6 samples.

Results

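Transcripts of 10 genes of the unfolded protein response (UPR) of the endoplasmic reticulum (ER) were followed in A549 cells after knockdown of BAP18. The genes were chosen by name, as HSPA5, HSP90B1, SDF2L1, DNAJB9, PDIA4, ATF6, ERN1, XBP1, HERPUD1 and EDEM1, from the 35474 genes in the deposited count table, and all 10 passed the filter on low counts. A549 is an established line of human lung adenocarcinoma cells. In all, 3 biological replicates received an siRNA against BAP18 (siBAP18) and 3 received a nonspecific siRNA (siCtrl), and RNA was taken 48 h later. All results therefore refer to a single cell line, and which of the 3 BAP18 siRNAs of the study was used in these cultures is not given in the sources used here.

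The UPR is the response of a cell to misfolded protein in the ER. Its sensors, of which 3 are known, sit in the ER membrane. IRE1, encoded by ERN1, splices the mRNA of the transcription factor XBP1. ATF6 moves to the Golgi apparatus, where proteases release its transcription factor domain. PERK, encoded by EIF2AK3, phosphorylates the translation factor eIF2α, which lowers general translation and favors that of ATF4. Chaperones such as HSPA5 (BiP) bind unfolded proteins and hold the sensors inactive, and their genes are classical targets of ATF6 and spliced XBP1. Terminally misfolded proteins are returned to the cytosol for ER-associated degradation (ERAD), which HERPUD1 and EDEM1 serve. Secretory cells of the lung depend on this response. Counts per gene record neither the splicing of XBP1 nor the cleavage of ATF6 nor phosphorylation, so the values below are levels of mRNA only.

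Library totals ranged from 42094524 to 56548620 counts. C17orf49, the symbol under which BAP18 is listed, was counted 743, 751 and 705 times in the siCtrl libraries and 120, 137 and 108 times in the siBAP18 libraries, always given here in the order of replicates 1, 2 and 3, which is a log2 fold change of −2.65. Its standard error (SE) was 0.111 and its Benjamini-Hochberg adjusted p was 7.32e-16 in the quasi-likelihood test of edgeR. All 9 epithelial and A549 markers had a mean above 1 RPKM (counts scaled by library total and exon length), and their summed level in CPM (counts scaled by library total and TMM factor) was 32773 to 34442 CPM in siCtrl and 22215 to 25203 CPM in siBAP18. Of 10 markers of other cell types, 7 were in the table, and 4 of these had a mean below 0.1 CPM in both groups. The summed level of the 7 was 75.7 to 80.9 CPM in siCtrl and 124 to 167 CPM in siBAP18, most of it from CD68, a lysosomal protein gene. The part of these shifts in the results below was not tested.

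The promoters of several of the 10 genes share a recognizable element, which is shown here because it is the sequence through which ATF6 and XBP1 act on chaperone genes. The ER stress element (ERSE) reads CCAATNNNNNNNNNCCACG and the related ERSE-II reads ATTGGNCCACG. RefSeq promoters of GRCh38.p14, from 250 bases before to 50 after each annotated start, were found for all 10 genes and searched on both strands. An exact ERSE was present in the promoters of HSPA5, HSP90B1 and XBP1, against 0.0769% of all 35116 promoters. An exact ERSE-II was present in those of HERPUD1 and SDF2L1, against 0.0541% of all promoters. The elements are given below as 5′ to 3′ sequence on the strand that reads CCAAT or ATTGG first, with the fixed letters of the motif in capitals in the promoters that follow.
HSPA5, chr9:125241391-125241409: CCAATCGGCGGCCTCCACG
HSP90B1, chr12:103930216-103930234: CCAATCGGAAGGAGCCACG
HSP90B1, chr12:103930321-103930339: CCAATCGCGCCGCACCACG
XBP1, chr22:28800603-28800621: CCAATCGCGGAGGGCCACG
HERPUD1, chr16:56932025-56932035: ATTGGGCCACG
SDF2L1, chr22:21642114-21642124: ATTGGTCCACG

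Whole promoters are printed for 3 genes that carry an element and gave 3 different outcomes: HSPA5, whose difference was within its error, HSP90B1, which fell, and HERPUD1, which rose. Each is written on the strand of its gene. The second element of HSP90B1 lies on the opposite strand and is therefore read there in reverse complement.
HSPA5, chr9:125241294-125241593, − strand: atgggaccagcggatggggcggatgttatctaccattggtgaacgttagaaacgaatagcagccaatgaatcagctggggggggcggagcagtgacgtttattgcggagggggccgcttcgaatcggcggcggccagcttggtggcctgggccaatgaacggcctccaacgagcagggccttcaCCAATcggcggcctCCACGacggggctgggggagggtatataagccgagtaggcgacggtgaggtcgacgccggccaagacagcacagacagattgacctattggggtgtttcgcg
HSP90B1, chr12:103930160-103930459, + strand: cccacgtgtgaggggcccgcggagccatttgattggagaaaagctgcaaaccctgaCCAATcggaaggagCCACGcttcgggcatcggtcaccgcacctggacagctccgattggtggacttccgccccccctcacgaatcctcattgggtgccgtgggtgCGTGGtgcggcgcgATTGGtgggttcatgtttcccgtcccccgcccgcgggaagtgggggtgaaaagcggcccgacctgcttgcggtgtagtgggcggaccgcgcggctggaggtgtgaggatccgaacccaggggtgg
HERPUD1, chr16:56931892-56932191, + strand: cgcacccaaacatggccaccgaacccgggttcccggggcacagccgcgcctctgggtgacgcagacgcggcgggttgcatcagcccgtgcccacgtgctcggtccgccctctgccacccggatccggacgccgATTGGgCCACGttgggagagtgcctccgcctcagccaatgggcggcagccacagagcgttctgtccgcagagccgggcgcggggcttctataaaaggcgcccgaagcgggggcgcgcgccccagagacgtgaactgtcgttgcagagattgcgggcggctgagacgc

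The remaining promoters, of DNAJB9, PDIA4, ATF6, ERN1 and EDEM1, held no exact copy of either element in this window. None of the 10 held an exact TGACGTGG, the binding sequence of ATF6 and XBP1 known as UPRE (0.729% of all promoters). None held an exact TGATGCAAT, a form of the composite element bound by ATF4 (0.236%). Other forms of these elements were not searched, so their absence is not shown. The HERPUD1 promoter printed above holds all letters of TGATGCAAT but the last, in order, on the opposite strand. A match is a description of the letters and not proof of a site.

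The 10 genes did not move as a group after BAP18 knockdown. HERPUD1 and ERN1 rose, EDEM1, HSP90B1, DNAJB9 and PDIA4 fell, and HSPA5, SDF2L1, XBP1 and ATF6 did not pass the test. At an adjusted p under 0.05, 2 of 10 were higher, where 24.5% of all 20776 genes tested were higher, and 4 of 10 were lower, where 25.1% of all genes tested were lower. None exceeded an absolute log2 fold change of 1 at that adjusted p in edgeR or in DESeq2, and none did so at an unadjusted p under 0.05 in edgeR, where 6 of 10 passed on p alone. Of all genes tested, 8.46% passed both thresholds. The median log2 fold change of the 10 was −0.031, against 0.0010 over all genes tested. In HERPUD1 and ATF6 every siBAP18 library lay above every siCtrl library in CPM (27.6% of all genes tested), and in the 4 genes that fell every siBAP18 library lay below (29.0% of all genes tested). The summed share of the 10 genes in the library total was 0.444%, 0.453% and 0.460% in siCtrl and 0.354%, 0.382% and 0.349% in siBAP18. Most of that difference came from HSP90B1: the share of the other 9 was 0.185%, 0.188% and 0.185% in siCtrl and 0.180%, 0.184% and 0.168% in siBAP18.

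**Figure D1:**
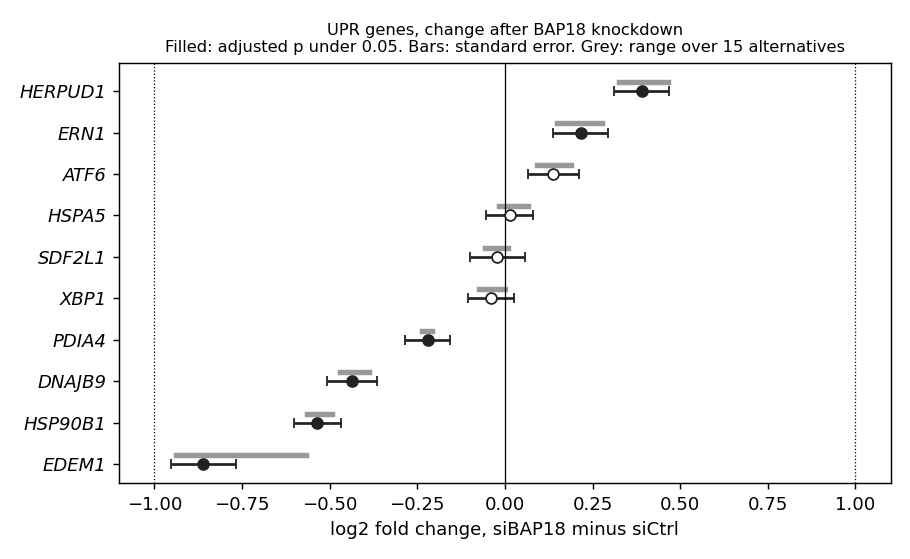
Log2 fold change (siBAP18 minus siCtrl, x axis) of each of the 10 genes (y axis), with its standard error. Filled points passed an adjusted p under 0.05, open points did not, grey bars give the range over 15 alternative analyses and dotted lines mark a log2 fold change of 1 in either direction. HERPUD1 stands at 0.39 and EDEM1 at −0.86, and no point reaches a dotted line.

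HSPA5 encodes BiP, the Hsp70 chaperone of the ER lumen and the usual readout of the UPR. It lies at chr9:125234853-125241330 (− strand). Its level was 739, 734 and 734 CPM in siCtrl and 762, 775 and 690.3 CPM in siBAP18. The control libraries were nearly equal, and the siBAP18 libraries lay on both sides of them, with replicate 3 the lowest. The means were 735 ± 2.69 CPM (SD, n = 3) and 742 ± 45.6 CPM (SD, n = 3), and the log2 fold change was 0.014 (SE 0.067, adjusted p = 0.884, edgeR).

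HSP90B1 encodes GRP94, the Hsp90 chaperone of the ER lumen, and lies at chr12:103930107-103953645 (+ strand). Its levels were 2613, 2622 and 2775 CPM in siCtrl and 1733, 1916 and 1880.4 CPM in siBAP18. The groups were far apart relative to their spread. The mean fell from 2670.2 ± 91.2 to 1843 ± 96.8 CPM (SD, n = 3 each), or in log2 −0.53 (SE 0.068, adjusted p = 3.77e-07, edgeR), which leaves 0.690 of the control level. HSP90B1 and HSPA5, which both carry an ERSE, thus gave different values in the same libraries. The ratio of their RPKM was 2.95, 2.98 and 3.15 in siCtrl and 1.89, 2.06 and 2.27 in siBAP18, values that depend on no scaling between libraries. The groups of ratios did not overlap, and the exact two-sided permutation p was 0.1, the smallest that 3 libraries against 3 allow. This ratio was chosen after the values were seen.

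SDF2L1 and DNAJB9 encode co-chaperones of BiP. SDF2L1 (chr22:21642261-21644298, + strand) had 16.4, 15.9 and 16.6 CPM in siCtrl and 15.9, 15.3 and 16.9 CPM in siBAP18. The groups overlapped throughout, with a log2 fold change of −0.022 (SE 0.079, adjusted p = 0.839, edgeR). DNAJB9, or ERdj4, is a J-domain protein that stimulates BiP and binds IRE1, and lies at chr7:108569568-108574850 (+ strand). Its levels were 27.8, 29.8 and 29.3 CPM in siCtrl and 21.3, 21.9 and 21.0 CPM in siBAP18. All siBAP18 libraries lay well below the controls. DNAJB9 fell by 0.44 on the log2 scale (SE 0.072, adjusted p = 1.51e-05, edgeR).

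PDIA4, or ERp72, is a protein disulfide isomerase of the ER lumen, encoded at chr7:149003062-149028641 (− strand). Its levels were 636, 635 and 642 CPM in siCtrl and 538, 548 and 556 CPM in siBAP18. The libraries within each group were close together and the groups did not overlap. The difference was small, with a log2 fold change of −0.22 (SE 0.064, adjusted p = 0.00555, edgeR).

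**Figure D2:**
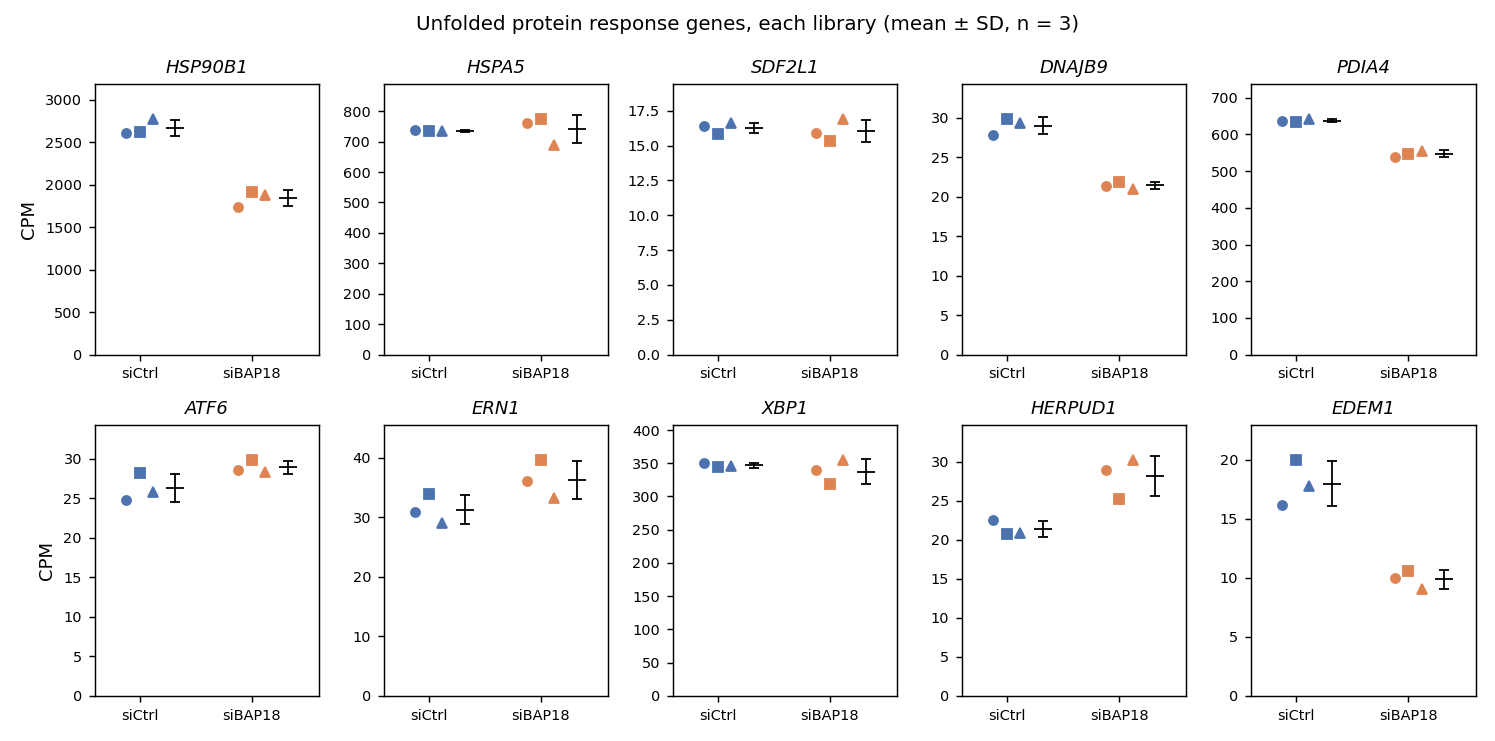
Level in CPM (y axis, from 0) of each of the 10 genes in every siCtrl and siBAP18 library. Circles, squares and triangles are replicates 1, 2 and 3, and the black marks give mean ± SD (n = 3). HSP90B1, DNAJB9, PDIA4 and EDEM1 lie lower in all siBAP18 libraries, HERPUD1 lies higher, and HSPA5, SDF2L1, XBP1 and ERN1 overlap.

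The sensors differed by small amounts. ATF6 lies at chr1:161766294-161964070 (+ strand) and had 24.7, 28.2 and 25.8 CPM in siCtrl and 28.6, 29.8 and 28.3 CPM in siBAP18. The lowest siBAP18 library was barely above the highest control. The log2 fold change was 0.14 (SE 0.073, adjusted p = 0.123, edgeR). ERN1, at chr17:64039142-64130819 (− strand), had 30.8, 34.0 and 29.1 CPM in siCtrl and 36.1, 39.6 and 33.2 CPM in siBAP18. The groups overlapped, because siBAP18 replicate 3 lay below siCtrl replicate 2. ERN1 rose by a log2 fold change of 0.22 (SE 0.078, adjusted p = 0.0242, edgeR). That call was lost without siCtrl replicate 1 (adjusted p = 0.1005), without siCtrl replicate 3 (0.164), without siBAP18 replicate 1 (0.0629) and without siBAP18 replicate 2 (0.0964, all edgeR), and with limma on log2(RPKM + 1) (adjusted p = 0.146) or log2(RPKM + 0.1) (0.145), so that HERPUD1 alone was higher in those fits.

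XBP1, the transcription factor whose mRNA IRE1 splices and which is also induced through its own ERSE, lies at chr22:28794555-28800597 (− strand). Its levels were 351, 344 and 346 CPM in siCtrl and 340, 318 and 355 CPM in siBAP18. The siBAP18 libraries lay on both sides of the controls, with replicate 2 the lowest and replicate 3 the highest of all. The log2 fold change was −0.040 (SE 0.066, adjusted p = 0.648, edgeR). Spliced and unspliced XBP1 mRNA, which differ by the short intron that IRE1 removes, were counted together. The XBP1 pseudogene XBP1P1, a near copy that could take reads from XBP1, had at most 6 counts in any library.

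The ERAD genes moved in opposite directions. HERPUD1 encodes a membrane protein that organizes the ERAD ubiquitin ligase complex and lies at chr16:56932048-56944863 (+ strand). Its levels were 22.6, 20.8 and 21.0 CPM in siCtrl and 29.0, 25.3 and 30.2 CPM in siBAP18. The lowest siBAP18 library, replicate 2, was above the highest control. HERPUD1 rose 1.31-fold, a log2 fold change of 0.39 (SE 0.079, adjusted p = 1.82e-04, edgeR).

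EDEM1 encodes a lectin that directs misfolded glycoproteins to ERAD, and lies at chr3:5187646-5219957 (+ strand). Its levels were 16.2, 20.0 and 17.8 CPM in siCtrl and 9.95, 10.6 and 9.02 CPM in siBAP18. The highest siBAP18 library lay far under the lowest control. EDEM1 fell by 0.86 on the log2 scale (SE 0.093, adjusted p = 2.42e-08, edgeR), which leaves 0.551 of the control level and is the largest change among the 10 genes. With limma on log2(RPKM + 1), whose pseudocount weighs on a gene of this level, the log2 fold change was −0.57. The ratio of HERPUD1 to EDEM1 in RPKM was 1.83, 1.36 and 1.54 in siCtrl and 3.81, 3.13 and 4.39 in siBAP18. The groups did not overlap, and the exact two-sided permutation p was again 0.1, the smallest possible. This ratio too was chosen after the values were seen.

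On the scale of RPKM, which takes out exon length, the order of levels in siCtrl was HSP90B1 (569 ± 17.8 RPKM, SD, n = 3), PDIA4 (194 ± 1.73), HSPA5 (188 ± 1.79), XBP1 (114 ± 0.834), SDF2L1 (14.8 ± 0.202), DNAJB9 (10.2 ± 0.456), HERPUD1 (4.15 ± 0.170), ATF6 (3.33 ± 0.260), ERN1 (2.88 ± 0.257) and EDEM1 (2.66 ± 0.309). The mRNAs of HSP90B1, PDIA4, HSPA5 and XBP1 thus stood far above those of the sensors and the ERAD genes. Neighbors differed beyond their spread except ATF6 from ERN1 and ERN1 from EDEM1, whose libraries overlapped. In siBAP18 the level of HSP90B1 was 394 ± 25.5 RPKM (SD, n = 3) and it was still the highest. HSPA5 (191 ± 18.1 RPKM) then had a higher mean than PDIA4 (167 ± 4.93 RPKM), but their libraries overlapped. HERPUD1 stood at 5.46 ± 0.339 RPKM and EDEM1 at 1.46 ± 0.169 RPKM.

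**Figure D3:**
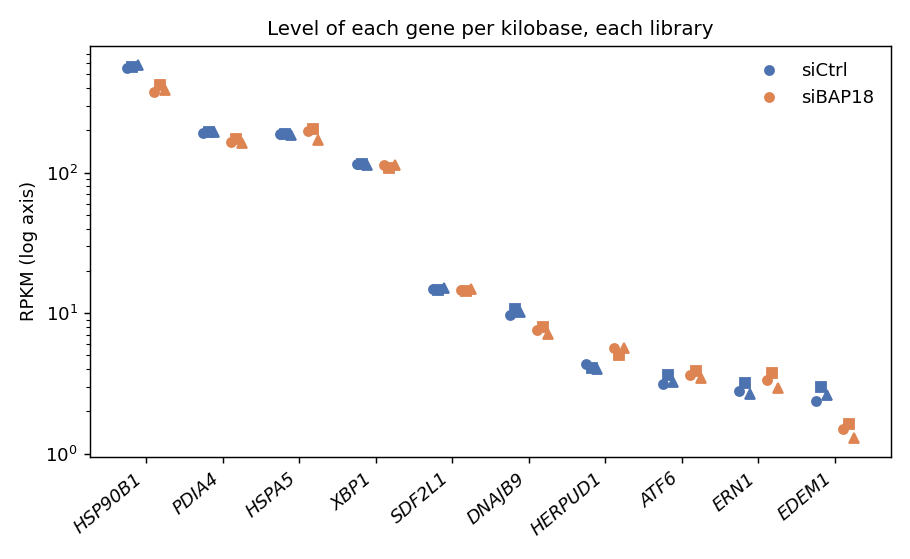
Level in RPKM (y axis, log scale) of the 10 genes, ordered by their mean in siCtrl, with every library shown (circle, square and triangle for replicates 1, 2 and 3). Levels run from 569 RPKM for HSP90B1 to 2.66 RPKM for EDEM1 in siCtrl.

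Some of the 10 genes overlap others in GENCODE 29. The libraries mark strand per the labels, but whether strand was used in counting is not given in the sources used here, so reads in the shared stretches cannot be assigned. HSP90B1 overlaps C12orf73 and TTC41P on the opposite strand, which had 6.00 ± 0.407 and 0.960 ± 0.149 CPM (SD, n = 3) in siCtrl, far below HSP90B1. DNAJB9 overlaps PNPLA8 and THAP5 at its 5′ end, on the opposite strand, with 13.9 ± 0.636 and 11.8 ± 1.06 CPM in siCtrl. PNPLA8 fell by 0.58 in log2 (adjusted p = 1.07e-05, edgeR; −0.39 with limma on log2(RPKM + 1)). Its part in the fall of DNAJB9 was not tested. HERPUD1 overlaps AC012181.1 and AC012181.2, ATF6 overlaps AL391825.1 and HSP90B1 also overlaps MIR3652, all on the same strand. These overlapping genes have no row under these names in the count table, so they have no values here. EDEM1 overlaps AC026202.3 on the opposite strand, which had 0.305 ± 0.147 CPM in siCtrl. The 5 genes with values here were chosen for their position after the values were seen.

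The mRNAs listed here for the PERK arm, which runs through eIF2α and ATF4, gave a different picture from the 10 genes. Of 17 genes listed for it, 11 were higher (64.7%) and 3 lower (17.6%) at an adjusted p under 0.05, beside 24.5% and 25.1% of all genes tested, and the median log2 fold change was 0.91, against 0.0010 over all genes tested. The 17 genes, like all lists here, were chosen with earlier results of these data known. Several of them answer to other stress pathways as well, among them BBC3 and TNFRSF10B, which are p53 targets. The activity of PERK was not measured, and its part in the values of these genes was not tested. EIF2AK3, which encodes PERK itself and was listed with the sensors, had 30.6, 33.0 and 32.6 CPM in siCtrl and 33.5, 37.1 and 29.7 CPM in siBAP18, overlapping groups with a log2 fold change of 0.063 (adjusted p = 0.533, edgeR). ATF4, the transcription factor translated when eIF2α is phosphorylated, had 331, 313 and 339.9 CPM in siCtrl and 574, 517 and 594 CPM in siBAP18. It was higher in every siBAP18 library, with a log2 fold change of 0.78 (SE 0.070, adjusted p = 1.09e-09, edgeR).

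The values of the genes downstream were uneven. Of the 17, DDIT4, VLDLR and NFE2L2 fell, by 0.23, 0.34 and 0.84 in log2 (adjusted p = 0.00352, 4.03e-04 and 5.20e-10, edgeR). CHAC1, ASNS and PPP1R15B, which are also ATF4 targets or eIF2α phosphatase subunits, did not pass the test, at log2 fold changes of 0.080, 0.16 and −0.10 (adjusted p = 0.823, 0.193 and 0.355, edgeR). The level of CHAC1 was low, with means of 0.868 CPM in siCtrl and 0.915 CPM in siBAP18, and its SE was wide, at 0.26. These 6 genes are named after their values were seen, because they did not rise. DDIT3 encodes CHOP, a transcription factor linked to cell death under ER stress, and had 11.8, 10.4 and 11.7 CPM in siCtrl and 188, 170.2 and 160.3 CPM in siBAP18. Its log2 fold change was 3.94 (SE 0.084, adjusted p = 6.56e-22, edgeR), or 15.3-fold. DDIT3 overlaps MARS at its 3′ end in GENCODE 29, and also overlaps AC022506.1, MIR616 and MBD6. The part of reads shared with these genes in the rise of DDIT3 was not tested. PPP1R15A encodes GADD34, the phosphatase subunit that reverses eIF2α phosphorylation, and had 214, 212 and 229.9 CPM in siCtrl and 4278, 3850.3 and 3897 CPM in siBAP18. It rose 18.4-fold (log2 fold change 4.20, SE 0.079, adjusted p = 1.24e-22, edgeR), and in siBAP18 its level in CPM was above that of every one of the 10 UPR genes. TRIB3, a pseudokinase induced by ATF4 and CHOP, increased from 15.3 ± 0.847 to 39.2 ± 1.47 CPM (SD, n = 3 each), or 1.35 in log2 (adjusted p = 1.53e-13, edgeR). DNAJC3, or p58IPK, an ER co-chaperone first described as an inhibitor of eIF2α kinases, fell from 24.3 ± 0.691 to 20.5 ± 1.32 CPM (SD, n = 3 each), or −0.24 in log2 (adjusted p = 0.00876, edgeR). The call for DNAJC3 was lost without siCtrl replicate 3 (log2 fold change −0.22, adjusted p = 0.0516, edgeR) and without siBAP18 replicate 1 (−0.22, adjusted p = 0.0522, edgeR).

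**Figure D4:**
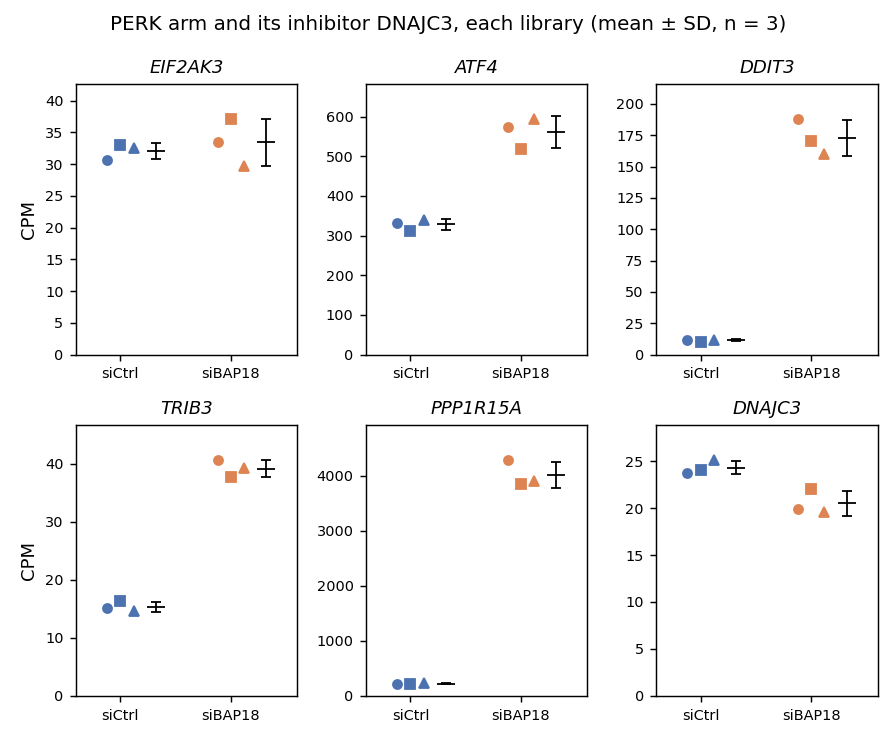
Level in CPM (y axis, from 0) of EIF2AK3, ATF4, DDIT3, TRIB3, PPP1R15A and DNAJC3 in every library, with mean ± SD (n = 3) in black and replicates 1, 2 and 3 as circles, squares and triangles. ATF4, DDIT3, TRIB3 and PPP1R15A are higher in all siBAP18 libraries, while EIF2AK3 overlaps and DNAJC3 is slightly lower.

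Among the other genes of the ER protein folding machinery, rises and falls were mixed as in the 10. Of 19 further ER chaperones and their helpers, 6 were higher (31.6%) and 9 lower (47.4%), with a median log2 fold change of −0.040. Of all genes tested, 24.5% were higher and 25.1% lower. The ER co-chaperone and disulfide reductase DNAJC10 fell by 1.12 in log2 (adjusted p = 3.42e-12, edgeR), and UGGT2, which reglucosylates unfolded glycoproteins, by 0.68 (adjusted p = 1.15e-06, edgeR). MESDC2, a chaperone of LDL receptor family proteins, rose by 0.89 (adjusted p = 2.19e-11, edgeR). With limma on log2(RPKM + 1) the log2 fold changes of DNAJC10 and UGGT2 were −0.72 and −0.36. Of 14 oxidoreductases, 5 were higher (35.7%) and 4 lower (28.6%), with a median of −0.066. P4HB, the founding protein disulfide isomerase, rose by 0.49 (adjusted p = 4.48e-06, edgeR), unlike PDIA4, and the ER peroxiredoxin PRDX4 rose by 0.89 (adjusted p = 1.20e-10, edgeR), while the membrane thioredoxin TMX1 fell by 0.79 (adjusted p = 1.19e-09, edgeR).

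Of 20 further ERAD genes tested, 5 were higher and 7 lower (median log2 fold change −0.014). SEL1L, the scaffold of the ligase complex in which HERPUD1 acts, fell by 0.68 in log2 (adjusted p = 6.18e-09, edgeR), and UBXN4, which recruits the ATPase VCP to the ER, fell by 0.79 (adjusted p = 3.98e-10, edgeR). AUP1, another ERAD component, rose by 0.90 (adjusted p = 3.04e-10, edgeR). Of 26 genes of translocation into and export from the ER, 4 were higher and 13 lower (median −0.17). LMAN1, a cargo receptor for glycoproteins, fell by 1.13 (adjusted p = 6.60e-13, edgeR), SPCS3 of the signal peptidase by 0.81 (adjusted p = 5.45e-09, edgeR) and the Golgi tether GOLGB1 by 0.70 (adjusted p = 3.36e-09, edgeR). Of 12 sensors, proteases and partner factors, 2 were higher (16.7%) and 5 lower (41.7%), with a median of −0.071. ATF6B, the paralog of ATF6, fell by 0.39 (adjusted p = 8.52e-05, edgeR) and MBTPS2, the site-2 protease that cleaves ATF6 in the Golgi, by 0.51 (adjusted p = 3.09e-05, edgeR; log2 fold change −0.27 with limma on log2(RPKM + 1)). CREB3, a transcription factor activated by the same proteases, rose by 0.67 (adjusted p = 2.18e-08, edgeR). Over all 108 genes of these lists that were tested, the PERK arm included, 33 were higher (30.6%) and 41 lower (38.0%), beside the shares of 24.5% and 25.1% over all genes.

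The cytosolic heat shock chaperones, the counterpart of the ER chaperones outside the ER, were also mixed. Of 22 genes, 5 were higher (22.7%) and 8 lower (36.4%), beside 24.5% and 25.1% of all genes tested (median log2 fold change −0.081). HSP90AA1, a cytosolic relative of HSP90B1, fell by 0.59 in log2 (adjusted p = 1.39e-07, edgeR), close to the value of HSP90B1. HSP90AB1, another cytosolic relative with a higher level in CPM, did not pass (log2 fold change −0.092, adjusted p = 0.258, edgeR). It is named after its values were seen. HSPH1, a nucleotide exchange factor, fell by 0.78 (adjusted p = 3.90e-10, edgeR). The small heat shock protein HSPB8 rose by 1.83 (adjusted p = 2.71e-12, edgeR), or by 1.18 with limma on log2(RPKM + 1).

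**Figure D5:**
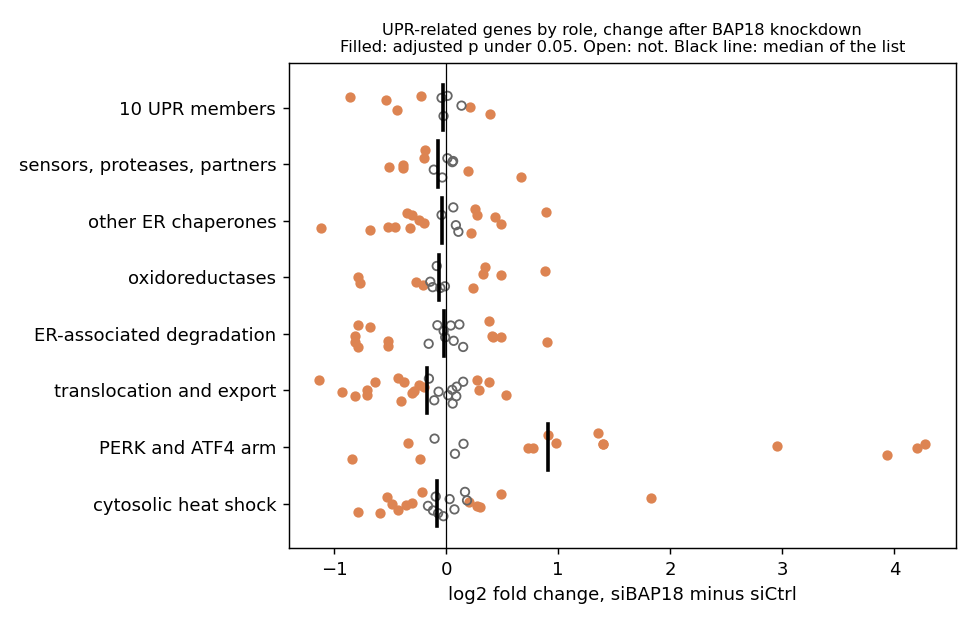
Log2 fold change (siBAP18 minus siCtrl, x axis) of every tested gene of each list (y axis). Filled points passed an adjusted p under 0.05, open points did not, and the black line is the median of the list. The PERK and ATF4 arm has a median of 0.91, and the other lists have medians from −0.17 to −0.014.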

How the data were processed

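The authors deposited raw counts per gene and RPKM values for 6 poly(A) RNA libraries, with gene positions on hg38 per the submitters' processing notes. Aligner, counting program and strand setting are not given in the sources used here. Recomputing the deposited RPKM from counts, column totals and listed lengths gave the same values. Every sample column was mapped by its title.

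Counts were analyzed in R 4.3.3 with edgeR 4.0.16: filterByExpr, TMM, quasi-likelihood F test of siBAP18 against siCtrl and Benjamini-Hochberg adjustment over 20776 genes. SE was taken as the absolute log2 fold change over the root of F. limma 3.58.1 (mean RPKM of at least 0.5) and DESeq2 1.42.0 served as alternatives, and the fits were tested on simulated data. The study's text names no test for these data, and its thresholds (adjusted p under 0.05, absolute log2 fold change over 1) were used. Sequences were searched with Python 3.11.15, and plots drawn with matplotlib 3.10.9. The 10 genes and all lists were chosen with earlier results of these data known. Named genes are the 10, BAP18, 6 fixed genes of the PERK arm, the 3 with the smallest adjusted p in each other list and pseudogenes of the 10.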

Additional observations from a re-analysis of the deposited data

How the results depend on the processing

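The results were recomputed under 15 alternatives. Same-numbered libraries had weakly correlated residuals across genes (Pearson r of 0.025, 0.12 and 0.048). Each siBAP18 library was closest to the siCtrl library of its own number, but siCtrl replicate 1 was closest to siBAP18 replicate 3 (0.040). These values do not settle whether replicate numbers pair the libraries, and the main fit did not pair them. With the replicate block 2 of the 10 genes were higher, 4 lower and 10803 of all genes passed. The replicate block changed no call among the 10 genes. The number of the 10 that were higher was 1 with limma on log2(RPKM + 1) and with limma on log2(RPKM + 0.1), and 1 to 2 with each library left out. The number lower was 4 in every alternative. Near-zero log2 fold changes turned sign, that of HSPA5 to −0.0016 with no filter and to −0.0053 and −0.017 without siBAP18 replicate 1 and 2, those of SDF2L1 to 0.0099, XBP1 to 9.47e-04 and EIF2AK3 to −0.018 without siBAP18 replicate 2, and that of AC026202.3 to 0.22 without siCtrl replicate 3. Over the libraries left out in turn these values reached 0.066 for HSPA5, −0.057 for SDF2L1, −0.074 for XBP1, 0.14 for EIF2AK3 and −0.51 for AC026202.3. No scaling moved the median of all genes by 0.1. With 3 libraries a group, a log2 fold change of 0.22 (ERN1) passed and one of 0.14 (ATF6) did not.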

Other observations

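All tested genes that carry an exact ER stress element in their promoter were also counted, those among the 10 included. Of 16 tested genes with an exact ERSE, HSPA5, HSP90B1 and XBP1 included, 5 were higher (31.2%) and 7 lower (43.8%) at an adjusted p under 0.05 in edgeR, with a median log2 fold change of −0.067. Of 14 tested genes with an exact ERSE-II, HERPUD1 and SDF2L1 included, 6 were higher (42.9%) and 2 lower (14.3%), with a median of 0.092. Over all genes tested, 24.5% were higher and 25.1% lower. This count was chosen after the values of the 10 genes were seen.

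Words of 7 bases complementary to guide bases 2 to 8 of the siRNAs named in the study's methods were searched in 3′ UTRs of GENCODE 29. The word for siBAP18#3, ACTCAAC, occurs in the 3′ UTR of 7.29% of genes and, among the 10, in that of EDEM1, which had the log2 fold change of −0.86. The word for siBAP18#1, AATCACA (14.1% of genes), occurs in ATF6 (log2 fold change 0.14) and ERN1 (0.22), and that for siBAP18#2, AAGATTC (11.2%), in none of the 10. HSP90B1, DNAJB9 and PDIA4, which fell, hold none of these words. The part of such matches in the change of EDEM1 was not tested.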
